A study of Homo sapiens with 2 samples.

Results

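The EGFR family was followed in single-cell libraries of 2 human breast cancer cell lines: 4 receptors (EGFR, ERBB2, ERBB3 and ERBB4) and 5 of their ligands (AREG, EREG, TGFA, HBEGF and BTC), chosen by name and matched by Ensembl identifier to 9 of the 30796 deposited genes. MDAMB468 and CAL51 are established lines that the labels call triple negative, a class of breast cancer defined by the lack of the oestrogen receptor, the progesterone receptor and HER2 amplification. Each line gave 1 Drop-seq library, in which cells are lysed in droplets with barcoded beads and the 3′ ends of polyadenylated RNA are counted as unique molecular identifiers (UMIs). The labels name no treatment, no engineered allele and no culture conditions for either line. With 1 library per line there is no replicate check and no test, the line cannot be told apart from its library, and every interval below is a 95% interval that covers counting error only.

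The receptors are tyrosine kinases of the cell surface. EGFR (also HER1) and ERBB4 bind ligand and have an active kinase, ERBB2 (HER2) has no known ligand and acts as the partner of the others, and ERBB3 binds neuregulins but has a weak kinase and signals through its partners. AREG, EREG, TGFA, HBEGF and BTC are made as membrane proteins and are released by ADAM proteases; AREG and TGFA bind EGFR, whereas EREG, HBEGF and BTC bind EGFR and ERBB4. Bound receptors pair and signal through adaptors to the RAS and ERK pathway, which induces its own inhibitors, among them DUSP phosphatases and Sprouty proteins. MDAMB468 is widely used as a line with an amplified EGFR gene; gene copies were not measured here.

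The MDAMB468 library held 306 barcodes with 5501900 UMIs (median 10016.5 per barcode), and the CAL51 library 1377 barcodes with a lowest total over both lines of 2501 UMIs. The libraries shared 31 barcode sequences, and the 31 CAL51-labelled copies were left out, leaving 1346 CAL51 barcodes with 16223444 UMIs (median 8635). Values per barcode also leave out 64 MDAMB468 and 7 CAL51 satellites, whose sequence is 1 base from that of a barcode at least 5 times as deep in their own library; 242 and 1339 barcodes remained, with medians of 14828.5 and 8660 UMIs. Against the labels, ESR1 had 3 and 0 UMIs and PGR 1 and 1, in MDAMB468 and CAL51 in that order. GATA3 and FOXA1, listed with them as markers, had 382 and 6 UMIs in MDAMB468 and 7 and 36 in CAL51. All 6 epithelial markers had UMIs in MDAMB468 and 5 of 6 in CAL51, where KRT7 was at 0, CDH1 at 0.431 CPM (UMIs per 1000000 UMIs of the summed library), and the mesenchymal marker CDH2 at 87.0 CPM. KRT8 (764 and 919 CPM), KRT18 (555 and 1555 CPM) and VIM (316 and 332 CPM) were present in both lines. The summed leukocyte markers stood at 0.727 and 0.431 CPM and the endothelial ones at 1.09 and 0.370 CPM, with CDH5 and VWF at 0 in MDAMB468; the erythroid marker HBA1 had 0 and 2 UMIs.

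Of 9 members, 8 have an upstream window in the RefSeq promoter table (build GRCh38.p14), and 4 windows are shown. EGFR and ERBB4 are the receptors with the highest and the lowest line difference, and AREG and EREG are ligand genes of the same strand in 1 stretch of chromosome 4, of which AREG was counted in MDAMB468 and EREG was not. The bases run 5′ to 3′ on the gene's strand and end before the annotated transcript. Capitals mark matches on either strand to TATAAA (the core element bound by TBP), GGGCGG (a GC box), TGACGTCA (the full cAMP response element) or TGANTCA (the AP-1 element); no matches overlap.
EGFR, chr7:55018767-55019016, plus strand: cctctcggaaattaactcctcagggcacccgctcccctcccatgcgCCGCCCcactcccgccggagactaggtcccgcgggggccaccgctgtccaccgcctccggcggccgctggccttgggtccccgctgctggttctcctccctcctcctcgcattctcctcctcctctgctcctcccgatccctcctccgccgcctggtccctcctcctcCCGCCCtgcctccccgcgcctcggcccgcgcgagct
ERBB4, chr2:212538842-212539052, minus strand: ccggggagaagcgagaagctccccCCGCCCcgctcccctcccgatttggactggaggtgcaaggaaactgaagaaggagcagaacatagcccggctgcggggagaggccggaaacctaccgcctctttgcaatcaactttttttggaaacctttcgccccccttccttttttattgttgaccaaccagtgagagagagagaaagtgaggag
AREG, chr4:74444886-74445133, plus strand: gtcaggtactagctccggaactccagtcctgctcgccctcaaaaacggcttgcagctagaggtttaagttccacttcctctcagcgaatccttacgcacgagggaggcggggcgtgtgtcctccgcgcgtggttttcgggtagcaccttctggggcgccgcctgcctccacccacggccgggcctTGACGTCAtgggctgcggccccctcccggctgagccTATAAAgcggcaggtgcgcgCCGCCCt
EREG, chr4:74364895-74365142, plus strand: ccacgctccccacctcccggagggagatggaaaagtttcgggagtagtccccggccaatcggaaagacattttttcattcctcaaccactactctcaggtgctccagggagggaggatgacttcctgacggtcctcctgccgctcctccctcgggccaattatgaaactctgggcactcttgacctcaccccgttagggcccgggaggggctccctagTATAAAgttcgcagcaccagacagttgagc

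The EGFR window shown, before the start of the annotated gene, had 2 GC boxes and no TATAAA, and 73.6% of its 250 bases were G or C, against a median of 58.0% over 35116 windows of that length. The table holds a second EGFR window, before a start at 55109839 within the gene, with 2 TATAAA, 2 TGANTCA and no GC box and a G or C share of 38.8%; 3′ counts do not tell which start was used. AREG and EREG each had 1 TATAAA, and AREG alone of the 4 had a TGACGTCA. Over all windows, 42.6% held GGGCGG, 10.7% TATAAA, 6.57% TGANTCA and 1.65% TGACGTCA. These matches describe the letters of the windows and not the binding of a factor.

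EGFR (ENSG00000146648, GRCh38 chromosome 7, 55019021 to 55211628, plus strand) had the most UMIs of any member, most of them in MDAMB468. It had 2524 UMIs in MDAMB468, 459 CPM (441 to 477), and 196 UMIs in CAL51, 12.1 CPM (10.4 to 13.9). It was thus 38.0-fold higher in MDAMB468 (32.8 to 44.1), a difference of 5.14 on the log2(CPM + 1) scale that places it 134th from the top among 15347 genes with at least 20 UMIs over both lines. The median of those genes was -0.13, and EGFR stood 5.26 above it. The antisense gene EGFR-AS1, which overlaps EGFR on the opposite strand, had 13 and 1 UMIs; the sources used here do not say whether strand was used in counting.

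ERBB4 (ENSG00000178568, chromosome 2, 211375717 to 212538841, minus strand) went the other way. A single UMI was counted in MDAMB468, 0.182 CPM (0.00460 to 1.01), against 240 UMIs in 177 CAL51 barcodes, 14.8 CPM (13.0 to 16.8). The ratio of CAL51 to MDAMB468 was 81.4, with an interval of 14.5 to 3228 set by the single UMI, and the log2 difference was -3.74. The receptor of the neuregulins with its own kinase was therefore counted almost wholly in CAL51.

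ERBB2 (ENSG00000141736, chromosome 17, 39687914 to 39730426, plus strand) was counted in both lines, with 39 UMIs and 7.09 CPM (5.04 to 9.69) in MDAMB468 and 262 UMIs and 16.1 CPM (14.3 to 18.2) in CAL51. It was 2.28-fold higher in CAL51 (1.62 to 3.28), and the CPM intervals did not overlap. Its log2 difference of -1.08 was close to the 2-fold limit: it lay between -1.22 and -0.61 over 12 settings (barcode sets, scalings and pseudocounts), at or past -1 in 10 of them, and at -0.96 relative to the median of all genes. ERBB2 overlaps PGAP3 (8 and 63 UMIs) and MIEN1 (489 and 1832 UMIs) on the opposite strand. The sources used here do not say how reads in the overlap were assigned, and an effect on the ERBB2 level was not tested.

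ERBB3 (ENSG00000065361, chromosome 12, 56076799 to 56103505, plus strand) was the receptor with the most even level. It had 85 UMIs in MDAMB468, 15.4 CPM (12.3 to 19.1), and 188 UMIs in CAL51, 11.6 CPM (9.99 to 13.4). The ratio of 1.33 had an interval of 1.02 to 1.73, and the CPM intervals overlapped. Its log2 difference of 0.39 lay between 0.09 and 0.49 over the 12 settings.

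AREG (amphiregulin) and TGFA (transforming growth factor alpha), both ligands of EGFR, were counted in the MDAMB468 library alone. AREG (ENSG00000109321, chromosome 4, 74445134 to 74455009) had 38 UMIs, 6.91 CPM (4.89 to 9.48), and TGFA (ENSG00000163235, chromosome 2, 70447280 to 70554193) had 49 UMIs, 8.91 CPM (6.59 to 11.8). Both had 0 UMIs in 1346 CAL51 barcodes, with an exact upper limit of 0.227 CPM. The floor of 3 counts over the library is 0.185 CPM. Against that floor AREG was at least 37.4-fold and TGFA at least 48.2-fold higher in MDAMB468. The exact intervals of these ratios, which also cover the counting error in MDAMB468, began at 28.9 and 37.7. In the 31 CAL51-labelled shared barcodes each had 1 UMI.

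BTC (betacellulin, ENSG00000174808, chromosome 4, 74744759 to 74794686) had 21 UMIs in MDAMB468, 3.82 CPM (2.36 to 5.83), and 4 in CAL51, 0.247 CPM (0.0672 to 0.631). It was 15.5-fold higher in MDAMB468 (5.22 to 62.0), with a log2 difference of 1.95. AREG, TGFA and BTC thus lay on the same side as EGFR, a receptor they bind, each below 10 CPM. ERBB4, which BTC also binds, lay on the other side, and the EGFR ligands HBEGF and EREG were not higher in MDAMB468.

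HBEGF (heparin-binding EGF-like growth factor, ENSG00000113070, chromosome 5, 140332843 to 140346631) had 9 UMIs in MDAMB468, 1.64 CPM (0.748 to 3.11), and 51 in CAL51, 3.14 CPM (2.34 to 4.13). The ratio of CAL51 to MDAMB468 was 1.92 (0.937 to 4.44), so a difference was not detectable at this depth. EREG (epiregulin, ENSG00000124882, chromosome 4, 74365143 to 74388751) had 0 UMIs in MDAMB468 and 4 in 4 CAL51 barcodes; it was the 1 member below 20 UMIs, and no ratio is given.

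Of the 9 members, 8 had at least 20 UMIs, and 4 of them (EGFR, AREG, TGFA and BTC) were at least 2-fold higher in MDAMB468 on the log2(CPM + 1) scale, where 15.8% of all 15347 genes were. ERBB2 and ERBB4 were at least 2-fold higher in CAL51, against 18.6% of all genes, and ERBB3 and HBEGF were on neither side. With few members and no replicate, these counts are a description. Levels are UMIs of 3′ ends, so they compare a gene between lines and do not order the genes of a line.

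**Figure D1:**
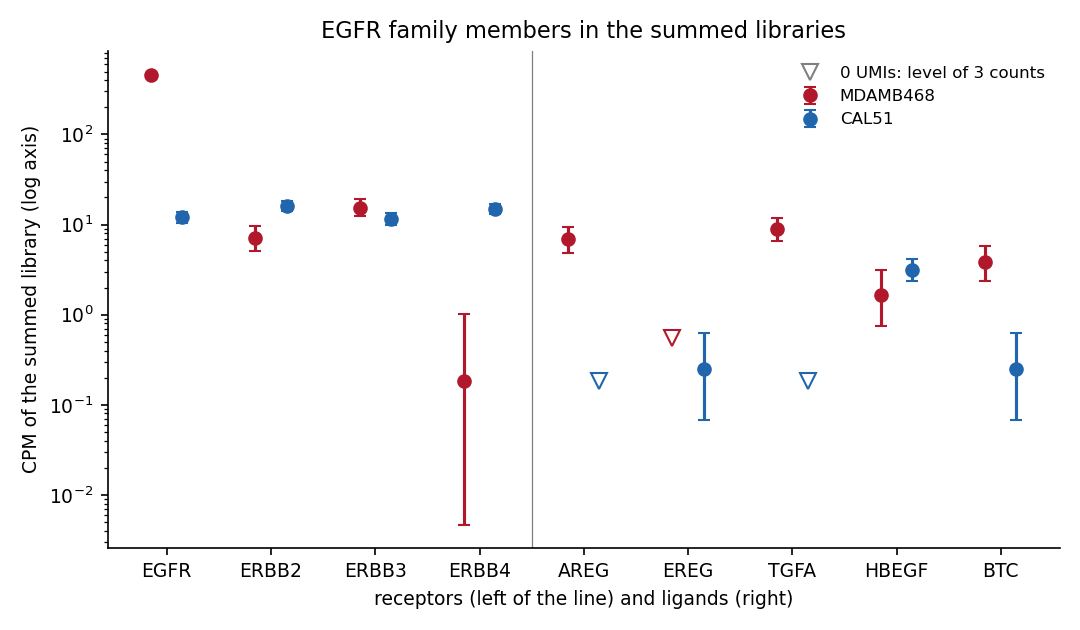
Level of each member in CPM (log axis) in the summed MDAMB468 (red) and CAL51 (blue) libraries; points are single libraries, bars are exact 95% Poisson intervals, and open triangles mark 0 UMIs, drawn at the level of 3 counts. EGFR is at 459 and 12.1 CPM, ERBB4 at 0.182 and 14.8 CPM, and AREG and TGFA have no CAL51 UMI.

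To set the lines side by side cell by cell, every barcode was thinned at random to 2500 UMIs. EGFR was then counted in 156 of 242 MDAMB468 barcodes (64.5%, exact binomial interval 58.1% to 70.5%; 62.9% expected over all draws) and in 44 of 1339 CAL51 barcodes (3.29%, 2.40% to 4.39%). Without thinning the shares were 92.6% and 11.9%. The 7 leukocyte, endothelial and erythroid markers, genes that neither line should express, had shares of 0% to 0.826% in MDAMB468 and 0% to 0.0747% in CAL51 at the same depth, below the EGFR share of each line.

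Other members were seen in few barcodes at 2500 UMIs. ERBB4 was in 0 of 242 MDAMB468 barcodes (floor of 3 counts 1.24%, exact upper limit 1.51%). In CAL51 it was in 45 of 1339 barcodes (3.36%, 2.46% to 4.47%). ERBB2 was in 2.07% of MDAMB468 barcodes (0.674% to 4.76%) and 4.18% of CAL51 barcodes (3.17% to 5.40%), and ERBB3 in 2.48% (0.915% to 5.32%) and 3.06% (2.21% to 4.13%), so the intervals of these receptors overlapped between the lines. AREG was in 2.07% and TGFA in 2.89% of MDAMB468 barcodes. Both were in 0 of 1339 CAL51 barcodes (floor of 3 counts 0.224%, exact upper limit 0.275%). HBEGF was in 0.826% and 1.05%, and BTC in 0.413% and 0%, of MDAMB468 and CAL51 barcodes. In this 1 draw the MDAMB468 shares of HBEGF and BTC were no higher than that of the marker PECAM1 (0.826%). Over all draws the expected BTC share in MDAMB468 was 0.961%. Without thinning, BTC had 21, HBEGF 9 and PECAM1 6 UMIs in MDAMB468.

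EGFR transcripts were spread over nearly all deep MDAMB468 barcodes. Of 153 barcodes with at least 10000 UMIs, 151 (98.7%) had an EGFR UMI, and their EGFR level ran from 0 through a median of 395 to 1787 CPM, with 5% of barcodes below 74.4 and 5% above 1003 CPM. In CAL51, 104 of 557 such barcodes (18.7%) had an EGFR UMI, the median was 0 and the highest level 198 CPM. At 2500 UMIs the variance of EGFR UMIs over their mean was 1.42 in MDAMB468 and 1.05 in CAL51, where counting noise alone gives 1. The mean itself was 1.21 UMIs in MDAMB468 and 0.0344 in CAL51. At a mean as low as that of CAL51 a moderate spread between cells hardly moves the ratio, so these values do not compare the spread of the lines. In 4 sets of barcodes of rising depth, EGFR ran from 424 to 468 CPM in MDAMB468 and from 11.7 to 12.5 CPM in CAL51, so the line difference was present at every depth.

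**Figure D2:**
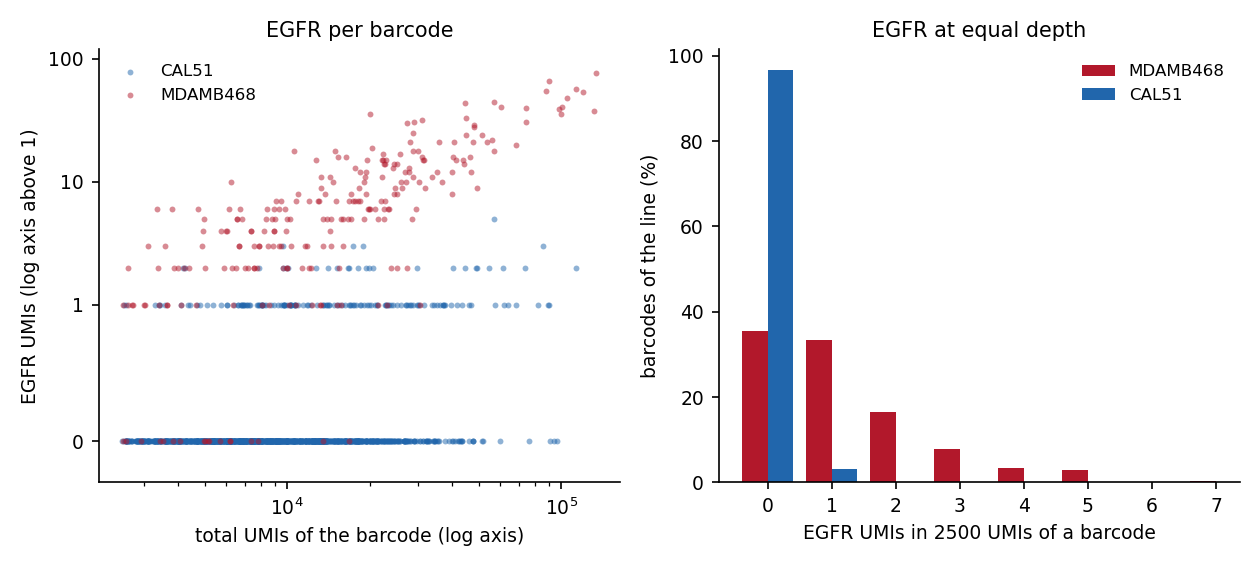
Left, EGFR UMIs (log axis above 1) against total UMIs (log axis) for 242 MDAMB468 (red) and 1339 CAL51 (blue) barcodes, 1 point each. Right, percent of barcodes of each line by EGFR UMIs after thinning to 2500 UMIs: 35.5% of MDAMB468 and 96.7% of CAL51 barcodes had 0.

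The ligand transcripts of MDAMB468 were sparse. The 38 AREG UMIs came from 16 barcodes, of which 2 were satellites, and 8 UMIs came from 1 barcode of 56839 UMIs, without which AREG was at 5.51 CPM; TGFA came from 40 barcodes with at most 4 UMIs and BTC from 17 with at most 3. Among 242 barcodes, 51 held 1 of these ligands, 10 held 2 and 0 held all 3. The barcodes holding 2 had a median of 50906.5 UMIs, against 11629 for those with none, so joint detection moved with depth.

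Ligand and receptor were counted in the same MDAMB468 barcodes. All 14 AREG-positive, all 40 TGFA-positive and all 9 HBEGF-positive barcodes also had EGFR UMIs, as had 16 of 17 with BTC. EGFR was in 92.6% of all MDAMB468 barcodes and in 98.7% of those with at least 10000 UMIs. The ligand-positive barcodes had medians of 16368 to 30732.5 UMIs, so an overlap near the share of deep barcodes is no result about the ligands. The summed EGFR level was 601 CPM (538 to 670) in AREG-positive barcodes and 441 CPM (423 to 461) in the others. For TGFA it was 514 (480 to 549) and 432 (411 to 454), for HBEGF 709 (589 to 848) and 449 (431 to 468), and for BTC 416 (372 to 464) and 465 (445 to 485). The intervals did not overlap for AREG, TGFA and HBEGF and did for BTC. They leave out the spread between cells. The 9 HBEGF-positive barcodes had 1 UMI each, in a line where the thinned HBEGF share was that of the marker PECAM1. The AREG-positive and TGFA-positive barcodes were deeper, with medians of 26935.5 and 30732.5 UMIs. In the deepest of 4 sets of MDAMB468 barcodes by depth, EGFR was at 468 CPM (445 to 493). Why the levels differed was not tested. In CAL51, 11 of 46 HBEGF-positive barcodes (23.9%, median 13562.5 UMIs) had an EGFR UMI, against 18.7% of CAL51 barcodes with at least 10000 UMIs. The summed EGFR level was 19.9 CPM in these HBEGF-positive barcodes and 11.6 CPM in the rest, with overlapping intervals.

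Cell cycle phases, called after thinning to 1000 UMIs, gave EGFR levels with overlapping intervals in each line. In MDAMB468 it was at 453 CPM in 53 barcodes called G1, 469 in 62 called S and 455 in 127 called G2M. In CAL51 it was at 13.3, 15.3 and 10.9 CPM in 127, 346 and 866 barcodes, and ERBB2 was at 18.5, 14.8 and 16.3 CPM. ERBB4 in CAL51 was at 17.8, 14.5 and 14.6 CPM in the same order. The lines differed in EGFR within each phase. Both lines were scored together, and their phase genes differed in level. The median log2 difference was -0.65 for the S phase list and -0.43 for the G2 and M phase list, against -0.13 for all genes. A call may therefore reflect the line as well as the phase, and the calls were not checked by another measure.

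The CAL51 barcodes formed 4 clusters, numbered from 0, while all 242 MDAMB468 barcodes fell in 1. The CAL51 cluster 3, whose leading genes included CD24, COL1A2, ADAMTS8 and PTGDS, had the highest ERBB4 level, 66 UMIs in 259 barcodes and 23.4 CPM (18.1 to 29.7). Cluster 1, led by IFIT2, IFIT1 and IFIT3, had the lowest, 28 UMIs in 336 barcodes and 9.96 CPM (6.62 to 14.4). Clusters 0 and 2, the latter led by mitotic genes such as CENPE and PLK1, lay between at 15.1 (12.2 to 18.4) and 11.9 CPM (8.85 to 15.7). The interval of cluster 3 overlapped that of cluster 0 but not those of clusters 1 and 2. EGFR had the same highest and lowest clusters, 15.9 CPM (11.6 to 21.3) and 8.89 CPM (5.76 to 13.1), with overlapping intervals, whereas ERBB2 was lowest in cluster 3 at 13.1 CPM. ERBB4 was not among the 2000 variable genes used to cluster and EGFR was; clusters come from the same cells, so these levels are a description.

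**Figure D3:**
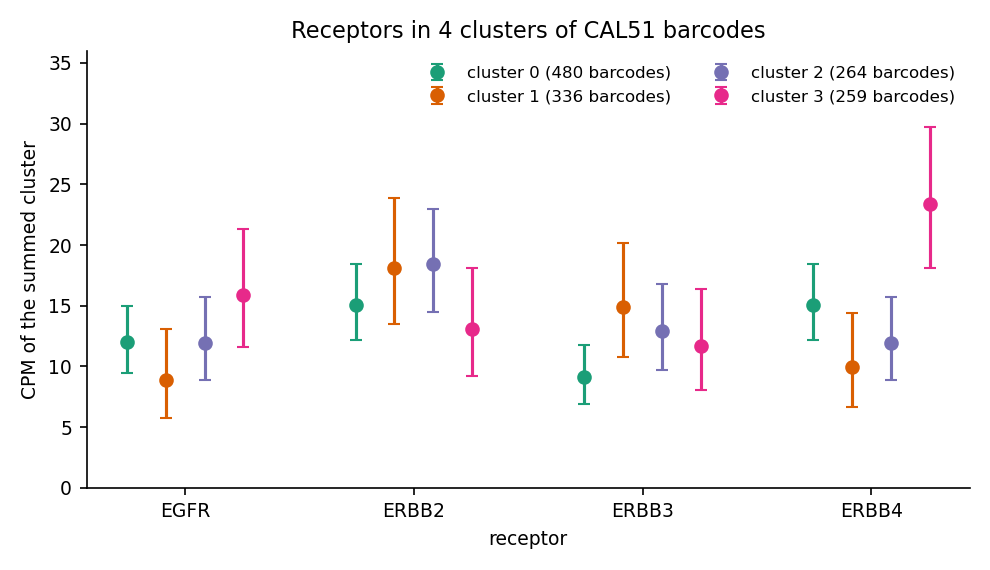
Level of each receptor in CPM (linear axis) in the 4 clusters of CAL51 barcodes, summed per cluster; points are sums of 1 library and bars exact 95% Poisson intervals. ERBB4 runs from 9.96 CPM in cluster 1 to 23.4 CPM in cluster 3. The ERBB4 interval of cluster 3 overlaps that of cluster 0 but not those of clusters 1 and 2. The intervals of EGFR, ERBB2 and ERBB3 overlap between all clusters.

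Across the 242 MDAMB468 barcodes EGFR was compared with the pathway lists by the correlation of depth-scaled residuals. Barcodes share the library, and scaling may leave part of the depth in. The summed list of receptor brakes and endocytosis genes gave the highest value among the lists, 0.33, followed by adaptors and signal carriers at 0.21, and ERK feedback and target genes gave 0.07. After thinning, the first 2 values were 0.07 and 0.02. Thinning to 2500 UMIs left a mean of 1.21 EGFR UMIs per barcode, and counts that low weaken any correlation. The drop therefore cannot decide whether the unthinned values hold a relation, and none is drawn from them. The genes most like EGFR included KMT2A (0.35), CAV1 (0.32), USP33 (0.30) and MTND2P28 (0.28), the top of 1715 genes ranked by this value; their own thinned values were not computed. CAV1, the coat protein of caveolae, is itself on the list of brakes and endocytosis genes, and KMT2A is a histone methyltransferase; MTND2P28 is a copy of a mitochondrial gene and its count is uncertain.

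In CAL51 each receptor had few UMIs per barcode, and correlations between receptors were close to 0. All 6 pairs of EGFR, ERBB2, ERBB3 and ERBB4 had correlations between -0.02 and 0.03 over 1339 barcodes, and those of the receptors with the summed lists lay between -0.10 and 0.10. The genes most like ERBB2 were PCSK5 (0.12), MYLK (0.11), BNIP3L (0.10), PARP9 (0.10) and MRPS21 (0.09). Counts this sparse weaken any correlation, so these values cannot decide whether a relation exists, and none is drawn from them. Of 1339 CAL51 barcodes, 120 held UMIs of 2 receptors, 25 of 3 and 1 of all 4. Their median depths were 20017, 32568 and 44477 UMIs, against 7345 for barcodes with none, so joint detection moved with depth.

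The neighbours of EGFR on chromosome 7 lay on the same side as EGFR: 9 of 10 with at least 20 UMIs were at least 2-fold higher in MDAMB468 and 0 in CAL51, against 15.8% and 18.6% of all genes, with a median log2 difference of 1.84. LANCL2 was highest (257 and 14.2 CPM, 18.0-fold, 15.7 to 20.8) and NIPSNAP2 lowest (560 and 294 CPM, 1.91-fold, 1.82 to 1.99). From barcode to barcode within MDAMB468, the correlation of EGFR with the summed neighbours was 0.18, with 0.07 after thinning and a higher value on a log scale. Thinned counts are too low to decide here as well. The value depended on the measure, and no relation is drawn from it. Single neighbours lay between -0.09 (CHCHD2) and 0.27 (VOPP1) in MDAMB468 and between -0.04 and 0.03 in CAL51, without thinning.

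Ligands of the family beyond the 9 members were rare in both libraries. Of EGF, EPGN, NRG1, NRG2 and NRG4, 2 had at least 20 UMIs. NRG1 (neuregulin 1, a ligand of ERBB3 and ERBB4) had 1 UMI in MDAMB468 and 42 in CAL51, 2.59 CPM (1.87 to 3.50), 14.2 times the MDAMB468 level (2.42 to 576). NRG4, a ligand of ERBB4, had 4 and 20 UMIs, and its ratio of 1.70 (0.568 to 6.82) was not distinguishable from none. NRG1 and its receptor ERBB4 were thus both higher in CAL51, whereas its receptor ERBB3 was not (15.4 CPM in MDAMB468 and 11.6 in CAL51). EGF itself had 1 and 2 UMIs.

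Of 9 sheddases and partners with at least 20 UMIs, 2 were at least 2-fold higher in MDAMB468 and 3 in CAL51, against 15.8% and 18.6% of all genes, with a median log2 difference of 0.30. ADAM10, which releases EGF and BTC, had the lowest value, -1.93, at 43.6 CPM in MDAMB468 and 169 in CAL51. CD9, a tetraspanin that binds HBEGF at the membrane, had the highest, 1.02, at 176 and 86.1 CPM. ADAM17, which releases AREG, TGFA and HBEGF, was at 41.4 and 38.2 CPM with a ratio of 1.08 (0.928 to 1.26), a gene chosen with its values known.

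Of 24 adaptors and signal carriers, 4 were at least 2-fold higher in MDAMB468, 1 in CAL51 and 19 on neither side, with a median of -0.01; for MDAMB468 this is close to the share of all genes (15.8%), and 18.6% of all genes were higher in CAL51. VAV3, a guanine nucleotide exchange factor, was highest at 3.26 (22.2 and 1.42 CPM), and EPS8, a substrate of EGFR, lowest at -2.21 (10.5 and 52.5 CPM). GRB2, the adaptor that links the receptors to SOS proteins, was at 300 CPM in MDAMB468 and 300 in CAL51. Among 24 brakes and endocytosis genes 4 were higher in MDAMB468 and 3 in CAL51, near or below those shares of all genes, with a median of 0.08. CBLC, a ubiquitin ligase for EGFR, had the highest value, 2.37 (15.6 and 2.22 CPM), and PTPRJ, a receptor phosphatase, the lowest, -1.81 (2.36 and 10.8 CPM). ERRFI1 (MIG6), which binds and inhibits the EGFR kinase, was at 76.2 CPM in MDAMB468 and 182 in CAL51, with a log2 difference of -1.25. GRB2 and ERRFI1 are likewise named with their values known.

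ERK feedback and target genes were split between the lines. Of 22 with at least 20 UMIs, 6 were at least 2-fold higher in MDAMB468 and 9 in CAL51, against 15.8% and 18.6% of all genes, with a median of -0.75 where all genes had -0.13. DUSP6, the phosphatase that takes ERK back to its inactive form, had the lowest value, -6.15: 18 UMIs in MDAMB468, 3.27 CPM, and 4920 in CAL51, 303 CPM, a ratio of MDAMB468 to CAL51 of 0.0108 (0.00639 to 0.0171). PHLDA2 had the highest, 7.46: 1086 UMIs in MDAMB468, 197 CPM, and 2 in CAL51, 1601 times the CAL51 level (442 to 13238).

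The 9 genes higher in CAL51 held the feedback inhibitors SPRY1 (26.7 and 216 CPM), SPRY2 (24.4 and 62.1 CPM) and SPRY4 (0.909 and 20.8 CPM). They also held the PEA3 transcription factors ETV1, ETV4 and ETV5, the cyclin gene CCND1 (111 and 475 CPM) and PHLDA1. On the MDAMB468 side, next to PHLDA2, were IER3 (1548 and 229 CPM), PLAUR (29.6 and 5.92 CPM; 58 of its 163 MDAMB468 UMIs came from 1 barcode, without which it was at 19.3 CPM), FOSL1, DUSP1 and DUSP5. The immediate early genes FOS (315 and 248 CPM) and EGR1 (119 and 144 CPM) were on neither side. All genes of this paragraph other than PHLDA2 and DUSP6 are named with their values known. DUSP6, SPRY1, SPRY2 and SPRY4 were past 2-fold on the CAL51 side in all 12 settings, and PHLDA2, IER3, DUSP1 and PLAUR on the MDAMB468 side in all 12, so members of the DUSP family stood on both sides.

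**Figure D4:**
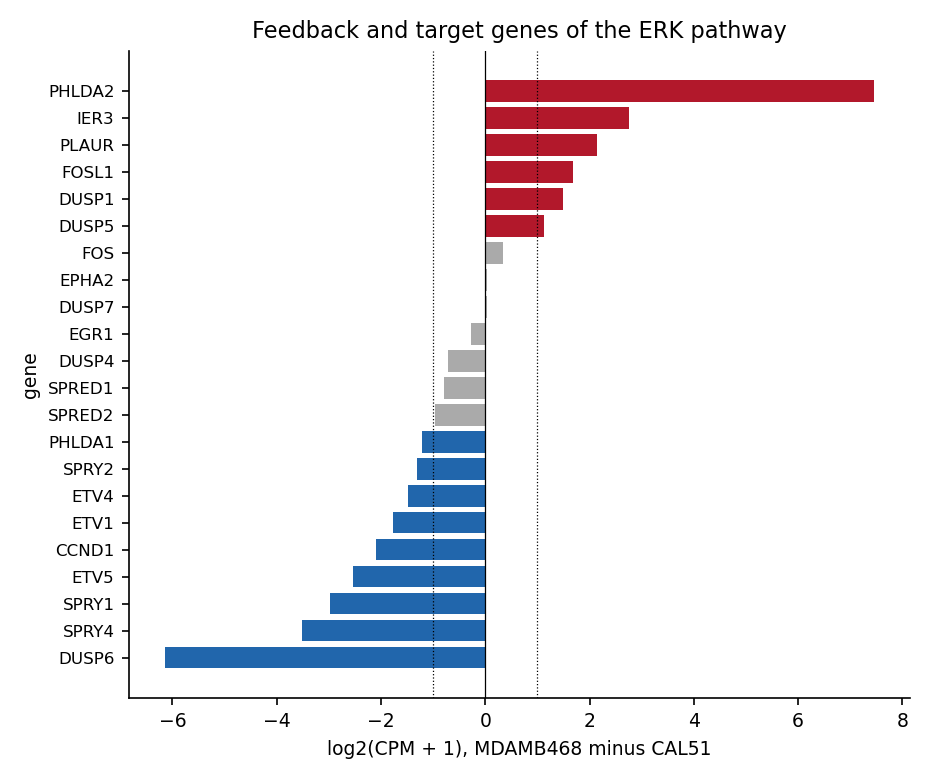
Line difference of the 22 feedback and target genes of the ERK pathway with at least 20 UMIs, as log2(CPM + 1) in MDAMB468 minus CAL51; bars start at 0, dotted lines mark 2-fold, red and blue bars are past it and grey bars are not. PHLDA2 (7.46) and DUSP6 (-6.15) are at the ends, and 6 bars are red and 9 blue.

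Over the 5 pathway lists, 81 genes had at least 20 UMIs, of which 16 were at least 2-fold higher in MDAMB468, 17 in CAL51 and 48 on neither side. Their median log2 difference was 0.02. These counts stand beside 15.8% and 18.6% of all genes. The near-even split depended on the scaling: with TMM or median-of-ratios factors 11 genes were higher in MDAMB468 and 22 in CAL51.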

How the data were processed

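Drop-seq UMI counts per gene and barcode, deposited by the authors as 1 matrix of whole numbers, were analysed as deposited; STARsolo is named in the submitters' processing notes, and the sources used here do not give its version, the genome build or the annotation. Other deposited columns, namely gene identifiers and barcode names, assigned genes and lines; the barcode prefix gave the line. Positions and gene names came from GENCODE 29 (GRCh38) and a gene name table, which named 30730 of 30796 identifiers.

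UMIs were summed per line and scaled to 1000000 (CPM). Line differences are log2(CPM + 1) for genes with at least 20 UMIs over both lines, a scale that understates low genes; log2 values of 1 or more are called 2-fold. Sums carry exact Poisson intervals, ratios exact conditional intervals, shares Clopper-Pearson intervals; a count of 0 is given the floor of 3 counts. Barcodes were thinned at random for shares. Correlations are of Pearson residuals, for members with at least 100 UMIs unless the counts given are lower. Clusters (scanpy 1.11.5, leidenalg 0.10.2) and phases follow the earlier processing of these files. No doublet caller was run, and undetected doublets remain. Scripts were tested on simulated data (matplotlib 3.10.9, pandas 2.3.3, scipy 1.17.1 and numpy 2.4.6 on Python 3.11.15; TMM factors from edgeR 4.0.16 in R 4.3.3).

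The members and gene lists were chosen with earlier results of these data known. Named genes are the members, the highest and lowest gene of each pathway list, and the 5 genes most like EGFR in MDAMB468 and ERBB2 in CAL51 with at least 500 UMIs; 1 of these is not reported here. Other genes, named with their values known, are marked so in the text. The comparisons of EGFR beside each ligand, by depth and by the barcode with the most AREG or PLAUR UMIs, the promoters shown and the correlations led with were chosen after seeing the data. Alternatives covered barcode sets, scaling, pseudocount, thinning depth and the measure of correlation.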

Additional observations from a re-analysis of the deposited data

Results flagged for a closer look

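EGFR was also counted in barcodes left out of the main comparison of the lines. The 31 CAL51-labelled barcodes whose sequence also occurs in the MDAMB468 library held 50 EGFR UMIs of 135240, which is 370 CPM (274 to 487). This lies above the floor of 3 counts there, 22.2 CPM. The MDAMB468 barcodes with the same sequences stood at 473 CPM (445 to 503), and the other CAL51 barcodes at 12.1 CPM (10.4 to 13.9). Among the other members, ERBB2, ERBB3, AREG, TGFA and BTC had 1 UMI each in these barcodes, and ERBB4, EREG and HBEGF had 0.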

How the results depend on the processing

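No paired analysis was possible because each line has 1 library and the labels give no replicate numbers. The log2 difference of EGFR was 5.14, and 4.84 with the shared barcodes kept and 4.41 with a pseudocount of 10 CPM. With that pseudocount 1 member was at least 2-fold higher in MDAMB468 and 1 in CAL51, and 7 pathway genes were higher in MDAMB468; without the deepest 5% of barcodes 3 members were higher in MDAMB468 and 1 in CAL51, since BTC no longer had 20 UMIs and ERBB2 no longer reached the limit, and pathway genes split 11 to 18. For the other 8 members, 0 of 88 values changed sign. The share of barcodes with EGFR rises with depth by construction: thinned to 1000, 5000 and 10000 UMIs it was 38.8%, 78.8% and 94.8% in MDAMB468 and 1.12%, 5.99% and 10.4% in CAL51, and in CAL51 it was 4.45% with the shared barcodes kept. The variance of EGFR over its mean in MDAMB468 was 1.09 at 1000 and 2.32 at 10000 UMIs, and in CAL51 1.66 with the shared barcodes kept. The correlation of EGFR with the brakes in MDAMB468 was 0.14 on a log scale and 0.07 after thinning, and with the chromosome 7 neighbours, main value 0.18, it was 0.33 on a log scale and 0.07 after thinning; the cause was not tested. TMM and median-of-ratios scaling shifted the median of all genes by -0.12 and -0.13. Depth limits the members with few UMIs, among them HBEGF, BTC and EREG.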
